A study of Mus musculus with 20 samples.

Results

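Genes of the DAZ, Nanos and Pumilio families (Dazl, Boll, Nanos1, Nanos2, Nanos3 and Pum2) were followed through m6A maps of mouse male germ cells by taking every deposited peak whose gene symbol was one of these 6 names. The mark was found on 5 of the 6 genes, at 30 peaks in all, out of 84778 peaks on 11972 genes. Dazl carried peaks at its 5′UTR and start codon in 4 stages and had no listed peak in round spermatids. Among its listed peaks, enrichment was lowest in type A1 spermatogonia, where the peak stood at percentile 50.3 of that stage's peaks. The values recovered for Dazl in round spermatids were lower still, at −0.62 and 0.38. Boll was most enriched in pachytene/diplotene spermatocytes, Nanos1 was marked only before meiotic prophase, Pum2 was marked in all 5 stages, Nanos3 had 1 weak peak in undifferentiated spermatogonia, and Nanos2 had no peak in any stage.

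The families act on mRNA rather than on DNA. DAZL and BOLL are RNA-binding proteins of germ cells; DAZL binds 3′ ends of germ cell transcripts and promotes their translation through poly(A)-binding protein, and BOLL, the oldest member of the family, acts later, in meiotic and postmeiotic cells. NANOS proteins lower the output of bound transcripts by bringing in the CCR4-NOT deadenylase, which shortens poly(A) tails, and, best known from the fly, they work with Pumilio proteins, which recognise short elements in 3′UTRs. In the mouse testis NANOS2 is known for keeping spermatogonial stem cells undifferentiated and male germ cells out of meiosis, NANOS3 for the survival of early germ cells, and DAZL for entry into the germ cell programme and meiosis.

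The 5 stages were undifferentiated spermatogonia, type A1 spermatogonia (the first differentiating generation), preleptotene spermatocytes (the last cells before meiotic prophase), pachytene/diplotene spermatocytes (mid-meiosis) and round spermatids (haploid), all from wild-type C57BL/6 mice with no treatment named in the labels. The sources used here name neither the ages of the mice behind the m6A libraries nor the way the cells were isolated. Poly(A) RNA was fragmented and pulled down with an antibody to N6-methyladenosine, a methyl mark inside mRNAs, and the pulled-down fragments were sequenced beside untreated input. A stage was covered by 2 immunoprecipitated libraries and 2 inputs, which makes 20 libraries, of 9622068 to 22402907 mapped reads each. Whether replicates came from separate animals is not stated in the labels, so the p-values cover only sample-to-sample spread, and that spread may be technical.

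The values below are deposited log2 enrichments, the pulled-down over the input signal of a peak on a log2 scale, 1 value per replicate. Each stage has its own peak list with its own lowest listed mean, which along the stages was 1.48, 0.71, 1.42, 1.55 and 0.61. The median peak also differed between lists, at 3.01, 1.76, 2.92, 2.87 and 1.67 in the same order, so levels were also given as percentiles within a stage. Libraries of type A1 stood apart in mapping, where 68.3% and 73.2% of input reads and 85.5% and 87.5% of immunoprecipitated reads mapped, against 92.8% to 97.6% elsewhere. Of 21 markers of Sertoli, Leydig, peritubular, endothelial and blood cells, 17 had a peak in undifferentiated spermatogonia, 3 in preleptotene and 0 in each of the other stages. All 7 Sertoli markers had one in undifferentiated spermatogonia, at 2.69 to 5.30. All 7 markers of undifferentiated spermatogonia had a peak in that stage, 4 of 5 differentiation markers in type A1, 6 of 6 meiotic entry markers in preleptotene, 5 of 6 pachytene markers in pachytene/diplotene and 4 of 7 spermatid markers in round spermatids. In bulk samples such as these, a lower enrichment of a transcript and a change in which cells supply it cannot be told apart, and the part of other cells and of mapping in the results below was not tested.

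**Figure D1:**
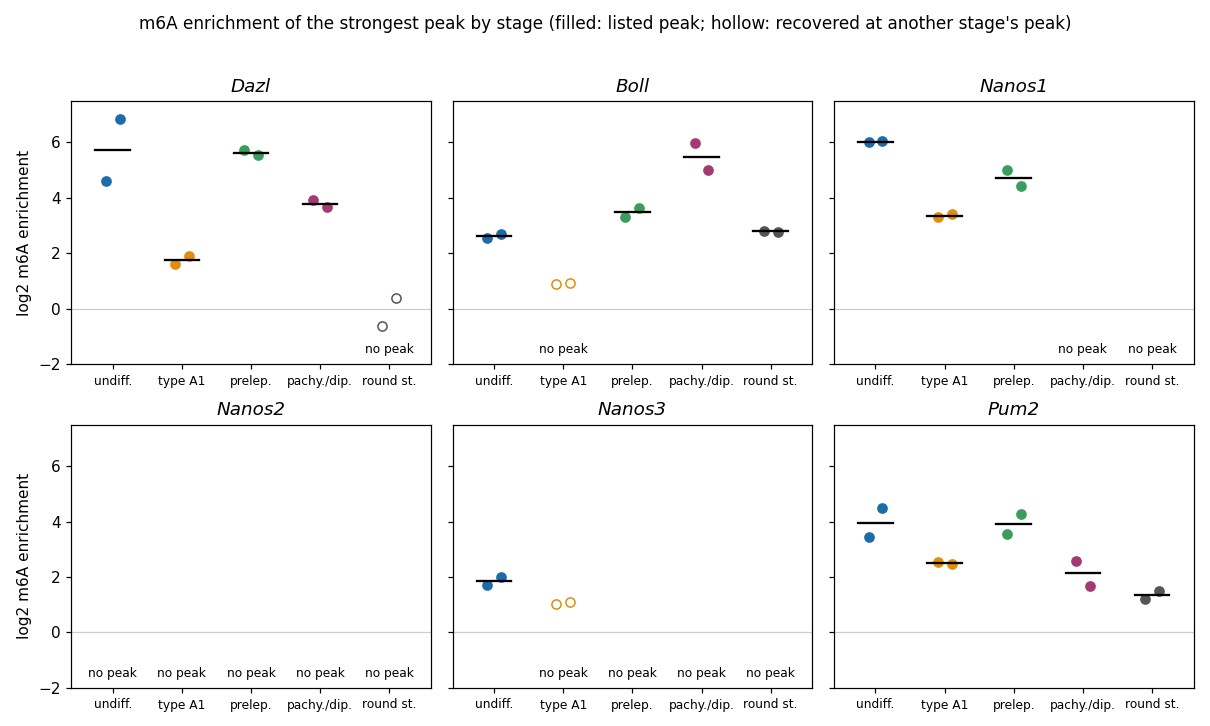
Log2 m6A enrichment (y axis) of the strongest peak of each regulator in the 5 stages (x axis), 1 filled point per replicate and a bar at their mean; hollow points are values recovered for a stage without a listed peak, at the peak of another stage. Dazl is high in undifferentiated and preleptotene cells and lower in type A1, Boll is highest in pachytene/diplotene, and Nanos2 has no value.

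Along the stages, from undifferentiated spermatogonia to round spermatids, a peak was listed for 5, 3, 4, 3 and 2 of the 6 regulators, with 10, 5, 10, 3 and 2 peaks in the same order. Among all genes marked in any stage, the shares with a peak were 75.9%, 61.1%, 62.4%, 56.1% and 46.9%, so the decline in the number of marked regulators ran alongside one over all genes. The median strongest peak of the marked regulators was 3.96, 2.51, 4.31, 3.79 and 2.07 along the stages, against 3.51, 2.05, 3.36, 3.23 and 1.86 for all marked genes of the same stage. The last of these medians rests on Boll and Pum2 alone.

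The 30 peaks fell at 9 places on the transcripts when peaks that shared at least 1 nt were joined, and 8 of the 9 were listed in at least 2 stages. Positions are counted in nucleotides from the 5′ end of the RefSeq transcript that the authors used. Dazl (Entrez 13164, mm10 chromosome 17, 50279393 to 50293620) had 1 place, at 50 to 384, over the end of the 5′UTR and the start codon. Boll (Entrez 75388, chromosome 1, 55243566 to 55363789) had 1 place, at 14 to 288 in the 5′UTR. Nanos1 (Entrez 332397, chromosome 19, 60755987 to 60759914) had a coding place at 503 to 657 and one at 832 to 1337 that ran from the coding sequence over the stop codon. Nanos3 (Entrez 244551, chromosome 8, 84173733 to 84176552) had 1 place at its stop codon, 401 to 590. Pum2 (Entrez 80913, chromosome 12, 8674092 to 8752583) had 4, at 198 to 418 near the 5′ end, 542 to 771 and 2965 to 3216 in the coding sequence, and 3217 to 3461 at the stop codon. The authors labelled the first as start codon in 3 tables, as coding sequence in undifferentiated cells (264 to 418) and left it blank in preleptotene. Nanos2 (Entrez 378430, chromosome 7, 18987524 to 18988962) had none.

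In the 4 tables that label start and stop codons, 10 of 20 peaks of the regulators (50%) lay in the 5′UTR or over the start codon, against 10250 of 66029 peaks of all genes (15.5%). These 20 peaks are few places seen in several stages, mainly those of Dazl, Boll and Pum2, and so are not independent. Another 5 lay in the coding sequence, 5 over the stop codon and 0 in the 3′UTR. Of all peaks, 58.4% lay in the coding sequence, 11.1% over the stop codon and 13.2% in the 3′UTR. The preleptotene table leaves codon labels blank and is not in these counts.

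**Figure D2:**
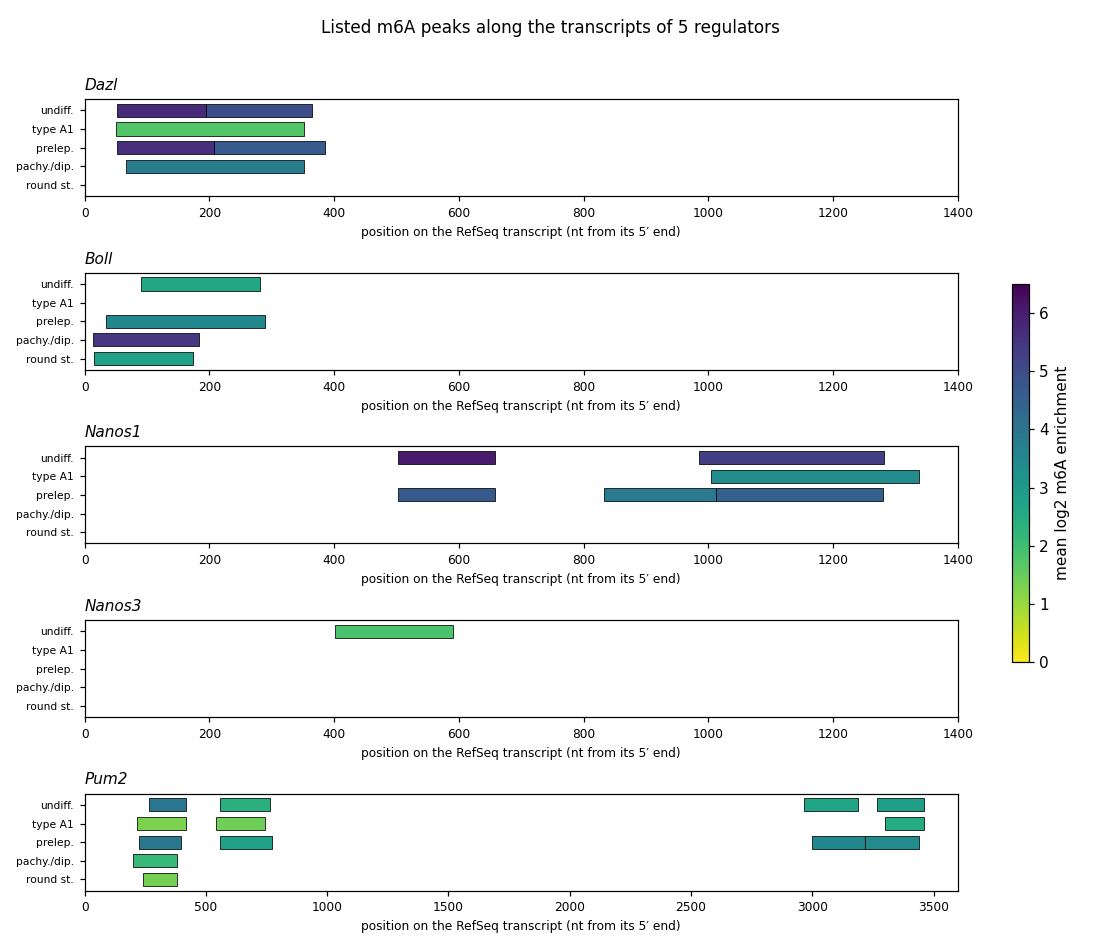
Listed peaks (bars) along the transcripts of the 5 marked regulators, in nt from the 5′ end (x axis), with 1 row per stage and colour for the mean log2 enrichment. Dazl and Boll are marked only near the 5′ end, Nanos1 and Nanos3 in the coding sequence or at the stop codon. Pum2 is marked near the 5′ end, in the coding sequence and at the stop codon.

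Stages were compared at the peaks of a stage's own list, where the deposited tables also hold the value of 1 other stage. A peak listed in only 1 of the 2 stages thus entered the test through that stage, which favours a higher value there. Differences are the later minus the earlier stage, after each replicate was centred on the median of all peaks of the table, and were tested with limma, 2 against 2, with a threshold of 0.05 on the p adjusted over all peaks (Benjamini-Hochberg). A difference is thus relative to the typical peak, whose level itself shifted. At undifferentiated peaks the column medians were 1.32 and 1.37 in type A1, against 2.80 and 3.27 in undifferentiated cells. At pachytene/diplotene peaks they were 1.26 and 1.29 in round spermatids, against 3.13 and 2.64 in pachytene/diplotene cells.

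Of the 30 tests at peaks of the regulators, 11 passed. For type A1 minus undifferentiated 4 of 10 passed, where 25.1% of all peaks did. Of these, 2 were higher in type A1, against 9.22% of all peaks, and 2 lower, against 15.9%. For preleptotene minus type A1 2 of 5 passed, against 28% of all peaks, and both were higher in preleptotene, against 13.6% of all peaks (14.4% were lower). For preleptotene minus undifferentiated 2 of 10 passed, against 7.8%, and both were lower in preleptotene, against 2.45% of all peaks (5.36% were higher). For round spermatid minus pachytene/diplotene 2 of 3 passed at pachytene/diplotene peaks, against 8.78%, both lower in round spermatids, against 7.06% of all peaks (1.71% were higher). At round spermatid peaks 1 of 2 passed, against 27%, and it was lower in round spermatids, against 10.9% of all peaks (16.1% were higher). With so few peaks, most on shared transcripts, these counts set no regulator apart from other genes. Calls among all peaks split by direction in a way that hangs on the centring. For type A1 minus undifferentiated, 2107 peaks were called higher and 3634 lower, and without centring 9 higher and 20638 lower. For preleptotene minus type A1 these were 2212 higher and 2353 lower, and without centring 10777 and 510. For round spermatid minus pachytene/diplotene at pachytene/diplotene peaks they were 266 and 1096, and without centring 6 and 14533. At round spermatid peaks they were 1745 and 1176, without centring 540 and 7457, and with columns scaled to a common spread 1462 and 490. For preleptotene minus undifferentiated they were 1002 and 458, and with columns scaled to a common spread 881 and 236.

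**Figure D3:**
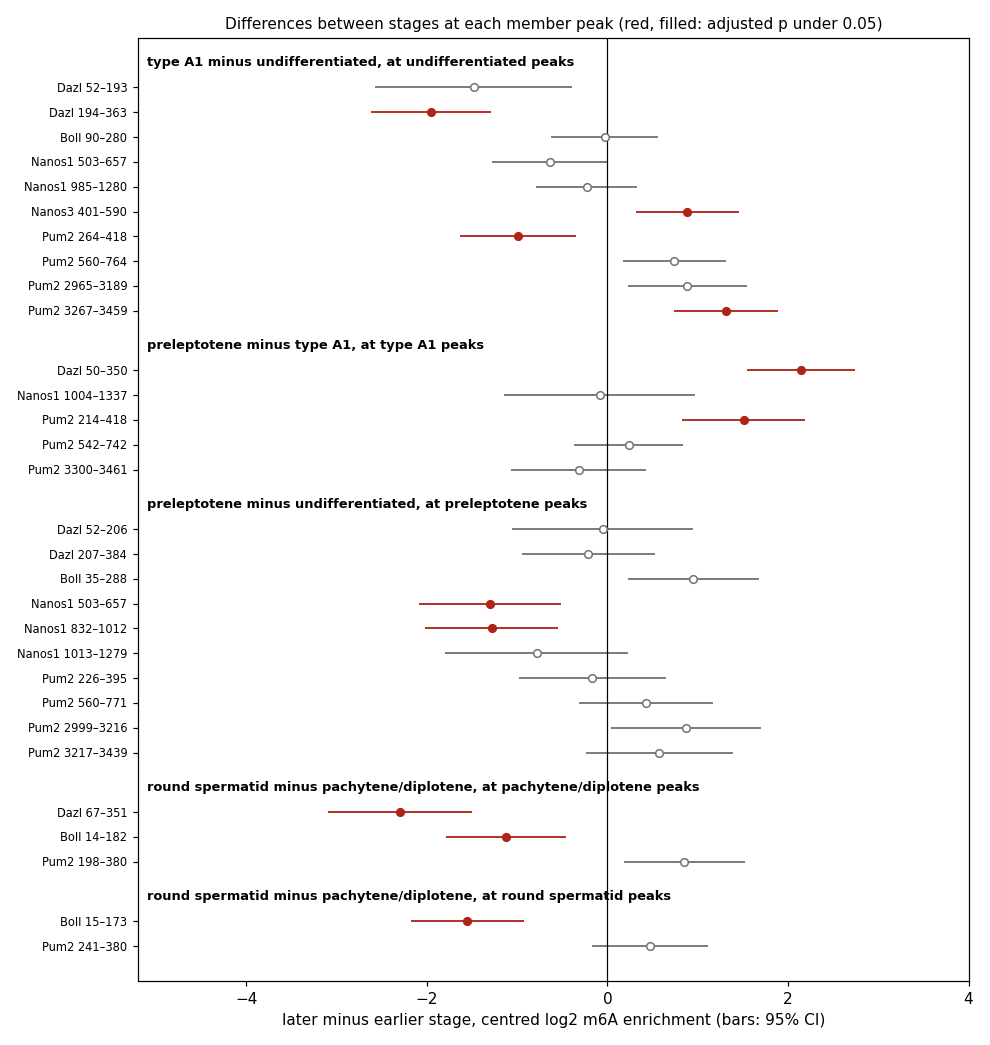
Difference in centred log2 enrichment, later minus earlier stage (x axis, bars are 95% confidence intervals), at each peak of the regulators (y axis, with its position in nt), grouped by comparison. Filled red points passed an adjusted p of 0.05; the furthest from 0 are those of Dazl.

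Dazl, the translation activator, showed the widest range of deposited levels among the regulators. In percentile of the strongest listed peak among marked genes, Boll (15.2 to 95.7) and Pum2 (4.62 to 73.4) ranged wider than Dazl (33.6 to 95.7). In undifferentiated spermatogonia 2 adjoining Dazl peaks were listed. The one at 52 to 193 in the 5′UTR had 4.62 and 6.83 (5.73 ± 1.56, SD, n = 2), and the one at 194 to 363 over the start codon had 4.50 and 5.46 (4.98 ± 0.68). The 2 replicates of the first differed by 2.21, a wider gap than at 99.9% of the peaks of that stage. In type A1 spermatogonia a single peak at 50 to 350 had 1.61 and 1.91 (1.76 ± 0.21). Both values lay below every listed Dazl value of the other stages. In preleptotene spermatocytes 2 peaks were listed again, with 5.72 and 5.53 at 52 to 206 (5.63 ± 0.13) and 4.64 and 4.66 at 207 to 384 (4.65 ± 0.02). Pachytene/diplotene spermatocytes had 3.91 and 3.66 at 67 to 351 (3.79 ± 0.18). Round spermatids had no listed peak, and the recovered values at the pachytene/diplotene place were −0.62 and 0.38, on either side of no enrichment. The reads behind these values were not analysed, so a lost mark and too few reads of the transcript cannot be told apart.

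Ranked by its strongest peak among all genes marked in the stage, Dazl stood at percentile 94.9 in undifferentiated, 33.6 in type A1, 95.7 in preleptotene and 68.6 in pachytene/diplotene cells. Among the stages with a listed Dazl peak, the order of its levels was thus undifferentiated and preleptotene first, then pachytene/diplotene, then type A1. The first 2 could not be ordered, since the preleptotene replicates lay between the undifferentiated ones.

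**Figure D4:**
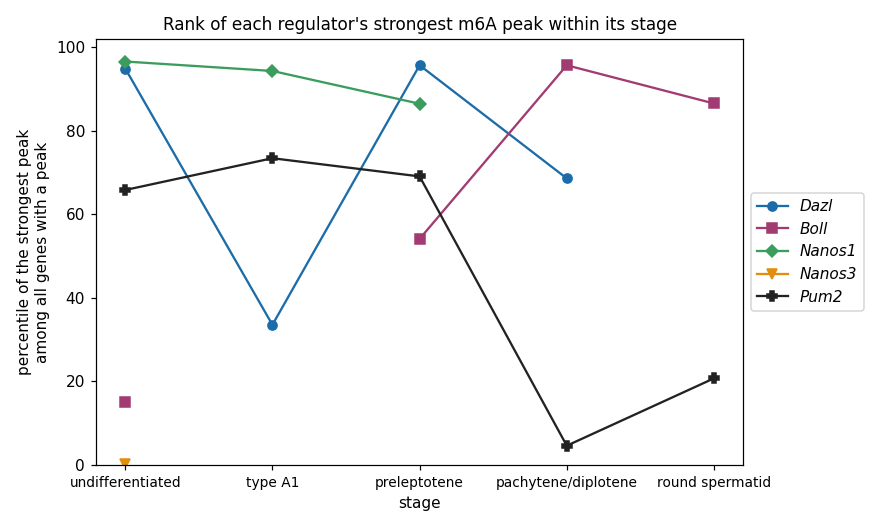
Percentile of the strongest peak of each regulator among the strongest peaks of all marked genes (y axis) by stage (x axis), with lines joining neighbouring stages that both have a peak. Dazl drops to 33.6 in type A1 between values of 94.9 and 95.7, while Boll reaches 95.7 in pachytene/diplotene and Pum2 falls to 4.62 there.

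Dazl fell in type A1 spermatogonia at its start codon peak. At 194 to 363 the type A1 values were 1.09 and 1.59, against 4.50 and 5.46 in undifferentiated spermatogonia. All type A1 values lay below all undifferentiated ones, but so did the column medians of all peaks (1.32 and 1.37, against 2.80 and 3.27). The share of all peaks without overlap was not counted. The centred difference was −1.96 (SE 0.29, 95% CI −2.62 to −1.29, limma adjusted p = 0.00354), and the peak stood at percentile 49.8 of the tested peaks in type A1 and at 94.0 in undifferentiated cells. At 52 to 193 the type A1 values were 2.53 and 2.59, against 4.62 and 6.83, and the difference of −1.48 (SE 0.48) missed the threshold (adjusted p = 0.0527). Without undifferentiated replicate 1 it was −2.35 (limma adjusted p = 2.50e-05), and without undifferentiated replicate 2 it was −0.61 (0.0883). Without type A1 replicates 1 and 2 its adjusted p from limma was 0.0673 and 0.0463. The 17 somatic markers with a peak in undifferentiated cells and the low mapping in type A1 move with this comparison.

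Dazl rose in preleptotene spermatocytes relative to type A1. At 50 to 350 the values were 4.99 and 4.95 in preleptotene, against 1.61 and 1.91 in type A1, with no overlap. The column medians of all peaks did not overlap either (2.79 and 2.84, against 1.78 and 1.73). The share of all peaks without overlap was not counted. The centred difference was 2.14 (SE 0.26, 95% CI 1.55 to 2.74, limma adjusted p = 0.00196), at percentile 95.2 of tested peaks in preleptotene and 50.4 in type A1. Both Dazl contrasts use the same type A1 libraries. Between preleptotene and undifferentiated cells, which leave type A1 out, the values overlapped at both peaks. The differences were −0.05 at 52 to 206 (95% CI −1.06 to 0.95, limma adjusted p = 0.967) and −0.21 at 207 to 384 (95% CI −0.95 to 0.52, limma adjusted p = 0.782). Neither sign held, since with columns scaled to a common spread they were 0.52 and 0.18, and without undifferentiated replicate 2 they were 0.73 and 0.0071.

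Dazl was lower again in round spermatids, at a place listed in pachytene/diplotene cells and not in round spermatids. The place thus entered the test through the stage where it was high. No alternative run removes that selection, so the call is not independent of it. The values at 67 to 351 were −0.62 and 0.38 in round spermatids, against 3.91 and 3.66 in pachytene/diplotene spermatocytes. The groups were over 3 log2 units apart at their nearest values, while the column medians of all peaks were 1.26 and 1.29, against 3.13 and 2.64. The share of all peaks without overlap was not counted here either. The reads behind the round spermatid values were not analysed. The centred difference was −2.30 (SE 0.36, 95% CI −3.10 to −1.50, limma adjusted p = 0.00697), and the place stood at percentile 2.04 in round spermatids and at 80.4 in pachytene/diplotene cells. The call at 194 to 363 for type A1, that at 50 to 350 for preleptotene and this one were the 3 of 11 that passed under every alternative run, with adjusted p from limma of at most 0.0124, 0.0191 and 0.0195.

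Boll, the family member of meiotic and postmeiotic cells, ran in another order. At its 5′UTR place undifferentiated spermatogonia had 2.57 and 2.68 (2.62 ± 0.08, 90 to 280). Type A1 had no listed peak, with recovered values of 0.89 and 0.92. Preleptotene spermatocytes had 3.31 and 3.63 (3.47 ± 0.23, 35 to 288), pachytene/diplotene spermatocytes 5.97 and 5.00 (5.48 ± 0.68, 14 to 182) and round spermatids 2.81 and 2.77 (2.79 ± 0.02, 15 to 173). The pachytene/diplotene values were the highest and overlapped with no other stage, though the share of all peaks without overlap was not counted. Preleptotene came next, above round spermatid and undifferentiated values. Within each stage, however, the strongest Boll peak stood at percentile 15.2 of marked genes in undifferentiated and 54.1 in preleptotene cells, and at 95.7 and 86.5 in pachytene/diplotene and round spermatid cells.

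Boll fell in round spermatids relative to pachytene/diplotene spermatocytes. At 14 to 182 the values were 2.76 and 2.74 in round spermatids, against 5.97 and 5.00 in pachytene/diplotene cells, a centred difference of −1.12 (SE 0.30, 95% CI −1.79 to −0.46, limma adjusted p = 0.0452). At the round spermatid list's own peak, 15 to 173, they were 2.81 and 2.77, against 6.02 and 5.02, a difference of −1.55 (SE 0.27, 95% CI −2.18 to −0.93, limma adjusted p = 0.00394). The 2 tests read the same libraries at almost the same place and differ in which peaks set the median. In rank the change was small, to percentile 93.5 in round spermatids against 97.8 in pachytene/diplotene cells at 14 to 182. The first call was lost without any 1 of its 4 replicates, with adjusted p from limma of 0.133 and 0.104 without round spermatid replicates 1 and 2 and 0.189 and 0.0503 without pachytene/diplotene replicates 1 and 2, and it was lost with columns scaled to a common spread (0.0596) or a variance trend (0.0830). The second was lost without round spermatid replicate 1 (adjusted p = 0.0702, limma) or replicate 2 (0.0565), and with columns scaled to a common spread the difference was −0.65 (0.130).

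Between the earlier stages Boll passed no test. In type A1 it had 0.89 and 0.92 at 90 to 280, against 2.57 and 2.68 in undifferentiated cells, and the centred difference was −0.03 (95% CI −0.62 to 0.56, limma adjusted p = 0.944). Its place among peaks was percentile 31.4 in type A1 and 30.5 in undifferentiated cells. Without undifferentiated replicate 1 the difference was 0.15. In preleptotene it had 3.31 and 3.63 at 35 to 288, against 2.36 and 2.70 in undifferentiated cells. The groups did not overlap, though the share of all peaks without overlap was not counted. The difference was 0.95 (SE 0.33, 95% CI 0.22 to 1.67, limma adjusted p = 0.112).

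Nanos1, a partner of Pumilio proteins, was marked in the 3 stages before meiotic prophase and had no listed peak in pachytene/diplotene or round spermatid cells. Its strongest peak was the coding one at 503 to 657, with 6.00 and 6.05 in undifferentiated spermatogonia (6.02 ± 0.03). That peak lay above 98.5% of the peaks of the stage. Preleptotene spermatocytes had 5.00 and 4.43 at the same place (4.72 ± 0.40). At the place that runs over the stop codon, undifferentiated cells had 5.11 and 5.59 (5.35 ± 0.34, 985 to 1280) and type A1 cells 3.29 and 3.41 (3.35 ± 0.08, 1004 to 1337). Preleptotene cells had 3.64 and 4.07 at 832 to 1012 (3.86 ± 0.30), a peak labelled as coding sequence, and 3.71 and 5.33 at 1013 to 1279 (4.52 ± 1.15). The last pair differed by 1.63, a wider gap than at 99.5% of preleptotene peaks. The strongest Nanos1 peak stood at percentiles 96.6, 94.3 and 86.5 of marked genes in undifferentiated, type A1 and preleptotene cells.

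The coding place of Nanos1 is not on the type A1 list, although the values recovered there for type A1 were 3.47 and 3.92 (3.70 ± 0.32), higher than 98.9% of the listed type A1 peaks. Of the 224 undifferentiated peaks with a type A1 value as high, the authors labelled 3 as unique to undifferentiated cells (1.34%), this one among them. The missing listing therefore does not stand for a low value.

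Nanos1 fell in preleptotene spermatocytes relative to undifferentiated spermatogonia at 2 of 3 peaks. At 503 to 657 the values were 5.00 and 4.43 in preleptotene, against 6.00 and 6.05 in undifferentiated cells, a centred difference of −1.30 (SE 0.36, 95% CI −2.09 to −0.52, limma adjusted p = 0.0473). At 832 to 1012 they were 3.64 and 4.07, against 4.95 and 5.33, a difference of −1.28 (SE 0.34, 95% CI −2.02 to −0.55, limma adjusted p = 0.0390). Neither pair of groups overlapped, and the share of all peaks without overlap was not counted. At 1013 to 1279 the values were 3.71 and 5.33, against 5.06 and 5.56, and the difference of −0.79 did not pass (95% CI −1.80 to 0.22, limma adjusted p = 0.362). Without preleptotene replicate 1 it was 0.018.

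Both Nanos1 calls depended on single libraries. Without preleptotene replicate 1, preleptotene replicate 2 and undifferentiated replicate 1, the adjusted p from limma at 503 to 657 was 0.0596, 0.287 and 0.182. Without these 3 and undifferentiated replicate 2, that at 832 to 1012 was 0.207, 0.0846, 0.113 and 0.0630. Both were lost without centring (0.0756 and 0.0828) and with columns scaled to a common spread (0.254 and 0.133), and the first with a variance trend (0.0618). In preleptotene and undifferentiated cells 3 and 17 of the 21 somatic markers had a peak.

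In type A1 relative to undifferentiated cells, Nanos1 did not pass at either place. The values at 503 to 657 were 3.47 and 3.92 in type A1, against 6.00 and 6.05 (difference −0.64, 95% CI −1.28 to 0.0015, limma adjusted p = 0.128), and at 985 to 1280 3.37 and 3.49, against 5.11 and 5.59 (difference −0.23, limma adjusted p = 0.519). All 4 places in rank were high, at percentiles 99.0 and 98.1 in type A1 and 98.5 and 96.2 in undifferentiated cells. Without undifferentiated replicate 2 the first difference was −0.85 (limma adjusted p = 0.0287). In preleptotene relative to type A1, the values at 1004 to 1337 were 3.53 and 5.13, against 3.29 and 3.41, a difference of −0.09 (95% CI −1.15 to 0.97, limma adjusted p = 0.903). The 2 preleptotene replicates disagreed here. Without replicate 1 of preleptotene the difference was 0.69 (limma adjusted p = 0.0203) and without replicate 2 −0.86 (0.00293), so no direction was set, and without centring the difference was 0.98.

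Nanos3, known for early germ cell survival, had a single listed peak, at its stop codon in undifferentiated spermatogonia, with 1.71 and 2.01 (1.86 ± 0.21). It stood at percentile 0.378 of the peaks of that stage, close to the lowest listed value. In type A1 the recovered values were 1.02 and 1.09 at 401 to 590. The deposited values were lower in type A1, by 0.80 without centring, while relative to the median peak the difference was 0.88 (SE 0.25, 95% CI 0.32 to 1.45, limma adjusted p = 0.0337). The call was lost without type A1 replicate 1 (adjusted p = 0.233, limma) or replicate 2 (0.192).

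Nanos2, the stem cell regulator, had no listed peak in any stage and so no value. A missing peak does not separate an unmarked transcript from one with too few reads, and read counts of single transcripts were not analysed here.

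Pum2, the Pumilio protein that binds 3′UTR elements, was marked in all 5 stages at its 5′ place, 198 to 418. There undifferentiated spermatogonia had 3.44 and 4.48 (3.96 ± 0.74, 264 to 418), type A1 1.25 and 1.29 (1.27 ± 0.03, 214 to 418), preleptotene 3.55 and 4.26 (3.91 ± 0.50, 226 to 395), pachytene/diplotene 2.58 and 1.68 (2.13 ± 0.63, 198 to 380) and round spermatids 1.21 and 1.48 (1.35 ± 0.19, 241 to 380). Undifferentiated and preleptotene deposited values were high and overlapped, those of type A1 and round spermatids were low and overlapped, and pachytene/diplotene lay between. This order did not hold in rank among the peaks of each stage's own list. There the 5′ place was lowest in pachytene/diplotene cells (percentile 9.37), then in type A1 cells, then in round spermatids (29.3). The other 3 places were listed only up to preleptotene. Undifferentiated cells had 2.24 and 2.51 at 560 to 764, 2.22 and 3.08 at 2965 to 3189 and 2.76 and 2.97 at 3267 to 3459. Type A1 had 1.41 and 1.48 at 542 to 742 and 2.55 and 2.48 at 3300 to 3461. Preleptotene had 2.52 and 2.97 at 560 to 771, 3.03 and 3.91 at 2999 to 3216 and 2.91 and 3.82 at 3217 to 3439.

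The strongest Pum2 peak thus lay at the 5′ place in every stage but type A1, where it lay at the stop codon. It stood at percentiles 65.8, 73.4 and 69.1 of marked genes up to preleptotene, and at 4.62 and 20.7 in pachytene/diplotene and round spermatid cells.

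In type A1 relative to undifferentiated cells, the 5′ peak of Pum2 was called lower and the stop codon peak higher relative to the median peak. At 264 to 418 the type A1 values were 1.21 and 1.34, against 3.44 and 4.48, a centred difference of −0.99 (SE 0.28, 95% CI −1.63 to −0.35, limma adjusted p = 0.0344). At 3267 to 3459 they were 2.50 and 2.48, against 2.76 and 2.97, a difference of 1.31 relative to the median peak (SE 0.26, 95% CI 0.73 to 1.89, limma adjusted p = 0.00897), though −0.38 without centring. The stop codon peak stood at percentile 87.7 in type A1 and 43.3 in undifferentiated cells, and the 5′ peak at 47.2 and 80.4. The difference between the 2 peaks in response was not tested. The coding peaks missed the threshold, with 0.74 at 560 to 764 (limma adjusted p = 0.0602) and 0.88 at 2965 to 3189 (0.0539), and −0.95 and −0.80 without centring.

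Single libraries weighed on these calls. The call at 264 to 418 was lost without type A1 replicate 1, type A1 replicate 2 or undifferentiated replicate 2 (limma adjusted p = 0.205, 0.126 and 0.0520), and the stop codon call without type A1 replicate 1 (0.0713). The coding peak at 560 to 764 passed without undifferentiated replicate 1 (0.0279) and that at 2965 to 3189 without undifferentiated replicate 2 (0.00947).

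In preleptotene relative to type A1, the 5′ peak of Pum2 rose. The values at 214 to 418 were 3.48 and 4.21 in preleptotene, against 1.25 and 1.29 in type A1, a centred difference of 1.51 (SE 0.30, 95% CI 0.82 to 2.19, limma adjusted p = 0.00955). It stood at percentile 80.9 in preleptotene and 19.2 in type A1, and the call was lost without type A1 replicate 1 (limma adjusted p = 0.0853). At 542 to 742 the difference was 0.23 (95% CI −0.37 to 0.84, limma adjusted p = 0.535) and at 3300 to 3461 −0.32 (95% CI −1.06 to 0.43, limma adjusted p = 0.490), where without centring it was 0.75. At 3300 to 3461 the difference was 0.11 without preleptotene replicate 1 and −0.75 without replicate 2 (limma adjusted p = 0.0100).

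No Pum2 peak passed in the other comparisons. In preleptotene relative to undifferentiated cells the 4 differences were −0.17, 0.43, 0.87 and 0.58 from the 5′ to the 3′ end (limma adjusted p = 0.856, 0.521, 0.206 and 0.416). The first was 0.17 without preleptotene replicate 1, 0.13 without undifferentiated replicate 2 and 0.05 with columns scaled to a common spread. In round spermatids relative to pachytene/diplotene cells the values at 198 to 380 were 1.19 and 1.56, against 2.58 and 1.68. The difference was 0.85 relative to the median peak (95% CI 0.18 to 1.53, limma adjusted p = 0.117) and −0.76 without centring. At 241 to 380 it was 0.47 (95% CI −0.18 to 1.11, limma adjusted p = 0.260), and −0.71 without centring.

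Genes with a course over the stages most like that of each regulator were those with the smallest mean difference in percentile of the strongest peak over the 5 stages, with 0 where no peak was listed, among 11215 genes. Nearest to Dazl were Lmbrd2, Clasp2 and Srsf1, with a mean difference of 4.39, 5.59 and 5.93 percentile points. Nearest to Boll were C2cd6, Gpr160 and Rnls, at 5.97, 6.89 and 7.49, of which C2cd6 alone was marked in the same 4 stages as Boll. Nearest to Nanos1 were Etv6, Esd and Wdr43, at 0.43, 0.48 and 1.19, all marked in the same 3 stages. Nearest to Pum2 were Smyd3, Map4k3 and Epb41, at 5.77, 6.20 and 6.24, of which Map4k3 alone was marked in all 5 stages as Pum2 was. For Srsf1, a splicing factor, the percentiles were 98.2 in undifferentiated, 32.5 in type A1, 94.8 in preleptotene and 93.0 in pachytene/diplotene cells, with no peak in round spermatids.

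Among 13 relatives and partners of the 3 families, 13, 9, 11, 6 and 5 had a peak along the stages. The leading one was Zfp36l2, which binds AU-rich elements and promotes mRNA decay, in undifferentiated (7.57 ± 0.63) and type A1 cells (3.27 ± 0.20), and Snapin, a SNARE-associated protein, in preleptotene (5.68 ± 0.44) and pachytene/diplotene cells (6.03 ± 0.02). Dnd1, a partner of NANOS2, had a strongest peak of 2.89, 2.84 and 3.01 up to preleptotene and none later. Its peak at 29 to 176 had a centred difference of 1.61 in type A1 relative to undifferentiated cells (limma adjusted p = 0.00588), with means of 2.81 and 2.89, and that at 10 to 166 one of −0.89 in preleptotene relative to type A1 (limma adjusted p = 0.0364), with means of 3.01 and 2.84. Both calls are changes relative to the median peak, on nearly level deposited values whose means differ in the other direction.

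Calls in the lists are also relative to the median peak, and the regulators themselves are left out of them. For type A1 minus undifferentiated, 2 of 27 peaks of the relatives and partners were called higher (7.41%) and 6 lower (22.2%), against 9.22% and 15.9% of all peaks. For preleptotene minus type A1 these were 3 (16.7%) and 4 (22.2%) of 18 peaks, against 13.6% and 14.4%. For preleptotene minus undifferentiated they were 1 (4%) and 4 (16%) of 25, against 5.36% and 2.45%, the 4 on only 2 genes. For round spermatid minus pachytene/diplotene the only calls were lower, 1 of 16 peaks at pachytene/diplotene peaks (6.25%, against 7.06%) and 2 of 9 at round spermatid peaks (22.2%, against 10.9%). The median differences of their peaks were −0.28, −0.27, 0.04, −0.13 and 0.14 in the same order, against −0.10, 0.0055, 0.0083, −0.0070 and −0.05 over all peaks.

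CCR4-NOT, the deadenylase that NANOS2 recruits, was marked widely. Of 14 genes of the complex and its TOB/BTG adaptors, 11, 13, 13, 12 and 10 had a peak along the stages. The leading gene was Cnot9 in undifferentiated (5.64 ± 0.34) and preleptotene cells (5.05 ± 0.01), the scaffold Cnot1 in type A1 (3.31 ± 0.03) and round spermatids (3.61 ± 0.41), and the adaptor Tob1 in pachytene/diplotene cells (5.34 ± 0.60). Cnot1 had 5.62, 3.31, 4.91, 5.32 and 3.61 along the stages. Cnot8, a catalytic subunit, had 3.24, 1.73 and 2.37 up to preleptotene and no peak later. For type A1 minus undifferentiated, 1 of the 35 CCR4-NOT peaks tested was called higher (2.86%) and 7 lower (20%), against 9.22% and 15.9% of all peaks. For preleptotene minus type A1 these were 5 (17.9%) and 1 (3.57%) of 28, against 13.6% and 14.4%. For preleptotene minus undifferentiated they were 5 (11.1%) and 1 (2.22%) of 45, against 5.36% and 2.45%. For round spermatid minus pachytene/diplotene they were 1 and 1 of 36 at pachytene/diplotene peaks (2.78% each, against 1.71% and 7.06%) and 1 (4.55%) and 3 (13.6%) of 22 at round spermatid peaks, against 16.1% and 10.9%. The lower calls at round spermatid peaks include Cnot1 at 4820 to 5038, with a difference of −0.99 (limma adjusted p = 0.0441). At the pachytene/diplotene list's peak of almost the same place, 4820 to 5013, the difference was −0.55 and did not pass (limma adjusted p = 0.356).

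Of 23 other mRNA-binding translational regulators of germ cells, 19, 20, 19, 16 and 11 had a peak along the stages. Ybx1, an mRNA-packaging protein, led in undifferentiated cells (8.08 ± 0.46). Cpeb4, of the family that binds cytoplasmic polyadenylation elements, led in type A1 (3.97 ± 0.01), preleptotene (7.41 ± 0.11) and round spermatid cells (3.91 ± 0.04), and its relative Cpeb2 in pachytene/diplotene cells (6.95 ± 0.49). Cpeb1 had 3.77, 2.42 and 3.95 up to preleptotene and none later, and its peak at 88 to 260 rose in preleptotene relative to type A1 (1.01, limma adjusted p = 0.0280), as did that at 68 to 227 relative to undifferentiated cells (1.31, limma adjusted p = 0.0444). Lin28a, the stem cell regulator of let-7 processing, had 3.86 and 1.57 in undifferentiated and type A1 cells and no peak later. Relative to the median peak, its type A1 peaks at 1641 to 1825 and 2988 to 3160 fell in preleptotene by 1.77 and 1.44 (limma adjusted p = 0.0132 and 0.0303). The deposited means there were 0.86 and 0.86 in preleptotene, against 1.57 and 1.24 in type A1. Both places entered the test through type A1, the only one of the 2 stages that lists them, so the calls are not independent of that selection. In type A1 relative to undifferentiated cells, Lin28a was called both ways, −0.91 at 406 to 575 and 1.09 at 1718 to 1877 (limma adjusted p = 0.0463 and 0.0368), and at the second the deposited mean was lower in type A1 (1.65 against 2.26).

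For type A1 minus undifferentiated, 4 of 65 peaks of this list were called higher (6.15%) and 11 lower (16.9%), against 9.22% and 15.9% of all peaks. For preleptotene minus type A1 these were 17 (31.5%) and 5 (9.26%) of 54, against 13.6% and 14.4%, and for preleptotene minus undifferentiated 11 (15.1%) and 1 (1.37%) of 73, against 5.36% and 2.45%. For round spermatid minus pachytene/diplotene the only calls were lower, 9 of 48 at pachytene/diplotene peaks (18.8%, against 7.06%) and 7 of 19 at round spermatid peaks (36.8%, against 10.9%). The median differences were −0.15, 0.52, 0.26, −0.50 and −0.69 in the same order. Peaks of 1 gene are not independent, and no list was tested against other genes.

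Transcripts known in mouse germ cells as targets of DAZL or NANOS2 form a list of 9 that includes Dazl itself. A peak was found on 9, 8, 9, 5 and 5 of them along the stages. The synaptonemal complex genes Sycp1 (5.76 ± 0.02 in undifferentiated) and Sycp3 (2.91 ± 0.67 in type A1) led in the spermatogonia, Meioc, which keeps cells in the meiotic programme, in preleptotene (5.90 ± 0.57) and pachytene/diplotene cells (5.92 ± 0.03), and Ddx4, the germ cell helicase, in round spermatids (2.21 ± 0.74). Ddx4 had 3.21, 1.54, 3.28, 3.45 and 2.21 along the stages and Sycp3 4.87, 2.91, 4.36, 4.97 and 2.00. Stra8, the retinoic acid-induced meiosis gene, had 2.74, 1.74 and 2.97, and Tex19.1, a repressor of transposable elements, 2.67, 1.04 and 2.33, both with no peak after preleptotene. Apart from Dazl, 1 of 18 peaks was called higher (5.56%) and 3 lower (16.7%) for type A1 minus undifferentiated, against 9.22% and 15.9% of all peaks. The only calls in preleptotene were higher, 3 of 13 relative to type A1 (23.1%, against 13.6%) and 5 of 19 relative to undifferentiated cells (26.3%, against 5.36%), the 5 on a single gene. For round spermatid minus pachytene/diplotene the only calls at pachytene/diplotene peaks were lower, 2 of 13 (15.4%, against 7.06%), and at round spermatid peaks 1 was higher (14.3%) and 3 lower (42.9%) of 7, against 16.1% and 10.9%. Sycp3 fell in round spermatids at 60 to 275, by 1.37 (limma adjusted p = 0.0157), with means of 2.00 in round spermatids and 4.54 in pachytene/diplotene cells. At the pachytene/diplotene list's peak, 60 to 229, its difference was −1.06 and did not pass (limma adjusted p = 0.0865). Of the named targets Ddx4, Stra8 and Tex19.1 had no peak that passed in any comparison that tested them.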

How the data were processed

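The authors deposited 1 peak table per stage, each peak with a log2 enrichment per replicate and a log2 ratio of it to another stage, per the file headers. The submitters' processing notes name TopHat2 2.0.14 and mm10. How peaks were called and libraries scaled is not stated in the labels or headers. A further deposited table gave the raw and mapped reads of each library. Depth behind single peaks was not analysed here, so a peak's precision comes from its 2 replicates alone.

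Which stage each ratio refers to was worked out from the values. Subtracting the ratio from the enrichment gave, across overlapping peaks, a correlation of 0.998 with 1 other stage in every table and of at most 0.737 with the rest, and the subtracted values were used as that stage's. Symbols were updated by Entrez gene for 83876 peaks, accession for 821 and synonym for 51 with the RefSeq table of GRCm38.p6, which has the coordinates of mm10, and 30 kept the deposited symbol.

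Each comparison used 2 against 2 values per peak, centred on each column's median, with limma 3.58.1 (lmFit, eBayes; R 4.3.3), two-sided p, no replicate block, Benjamini-Hochberg adjustment over the table and a threshold of 0.05. Peaks at exactly 0 in any column (43 to 188 a table) were not tested. The procedure was tested on simulated data. Alternatives were no centring, scaling to a common median absolute deviation (MAD), zeros kept, a variance trend, a minimum enrichment, a replicate block and leaving out each replicate.

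The rule names all 6 regulators with every peak, 10 fixed genes of 4 lists in every stage, each list's leading gene per stage, and the 3 genes most like each regulator marked in 2 or more stages. A gene the rule names is not reported here. The regulators and lists were chosen with earlier results of these data known.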

Additional observations from a re-analysis of the deposited data

How the results depend on the processing

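Over the 30 differences, 30 kept direction and side of the threshold with zeros kept, 27 of 27 with peaks under 1.55 left out, 28 with a variance trend, 23 with scaling to a common MAD and 15 without centring. Leaving out 1 replicate kept 83 of 120, weakened 20, strengthened 7 and reversed 10.

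Without centring, calls at regulator peaks numbered 8 (type A1 minus undifferentiated) and 0 (preleptotene minus undifferentiated), and calls at all peaks 20647, 11287 (preleptotene minus type A1), 14539 and 7997 (round spermatid minus pachytene/diplotene at pachytene/diplotene and round spermatid peaks), against 5741, 4565, 1362 and 2921 with it. Differences that reversed without centring were −0.95 (Pum2 560 to 764), −0.80 (Pum2 2965 to 3189), −0.38 (Pum2 3267 to 3459) and −0.80 (Nanos3) for type A1 minus undifferentiated, 0.75 (Pum2 3300 to 3461) and 0.98 (Nanos1 1004 to 1337) for preleptotene minus type A1, and −0.76 (Pum2 198 to 380) and −0.71 (Pum2 241 to 380) for round spermatid minus pachytene/diplotene. A table's common shift, which centring removes, enters these values by construction. With a common MAD, regulator calls were 0 for preleptotene minus undifferentiated and 1 and 0 for round spermatid minus pachytene/diplotene at pachytene/diplotene and round spermatid peaks. Differences reversed there to 0.054 (Pum2 226 to 395), 0.52 (Dazl 52 to 206) and 0.18 (Dazl 207 to 384). A variance trend gave 1 regulator call for preleptotene minus undifferentiated and 1 for round spermatid minus pachytene/diplotene at pachytene/diplotene peaks. With peaks under 1.55 left out, regulator calls for preleptotene minus type A1 were 1 and calls at all round spermatid peaks 1860, since fewer peaks were tested, and 1 regulator kept a peak in round spermatids, as when both replicates had to pass 1.55. With the same number of best peaks per table (10950), 3 regulators had a peak in undifferentiated cells. Where no construction is named, the cause was not tested.

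The deviations of same-numbered replicates correlated at r of −0.129, −0.143, 0.122, 0.0614 and 0.0152. The labels state no pairing, and correlations this weak do not settle whether same-numbered replicates were paired. With a replicate block, calls at all peaks were 2509 for preleptotene minus undifferentiated, against 1460, and regulator calls for type A1 minus undifferentiated were 6, against 4, the added ones being Dazl 52 to 193 (limma adjusted p = 0.00810) and Pum2 2965 to 3189 (0.0465). It changed no other regulator call. With crossed numbers, chosen after seeing the data, the replicate block gave 7 regulator calls and 7913 at all peaks for type A1 minus undifferentiated, and 2 and 5836 for preleptotene minus type A1.

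Leaving out 1 replicate, regulator calls ranged from 1 to 6, 1 to 4, 0 to 1, 1 to 1 and 0 to 1 in the 5 comparisons (type A1 minus undifferentiated, preleptotene minus type A1, preleptotene minus undifferentiated, and the last pair at pachytene/diplotene and round spermatid peaks), and calls at all peaks from 1798 to 8730, 1044 to 8343, 626 to 1411, 606 to 1393 and 924 to 3216. Differences that reversed for at least 1 replicate ranged from −0.21 to 0.15 (Boll 90 to 280), −0.75 to 0.11 (Pum2 3300 to 3461), −0.86 to 0.69 (Nanos1 1004 to 1337), −0.51 to 0.17 (Pum2 226 to 395), −1.59 to 0.018 (Nanos1 1013 to 1279), −0.84 to 0.73 (Dazl 52 to 206) and −0.43 to 0.0071 (Dazl 207 to 384). Joining peaks only at the wider overlap gave 10 places, 8 of them in 2 or more stages. Limits are the 2 replicates a stage, unknown read counts per peak, and type A1 and round spermatid lists with a narrower spread (at type A1 peaks the type A1 columns had SDs of 0.68 and 0.66, those of preleptotene 1.21 and 1.14).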
